A study of Mus musculus with 127 samples.

Results

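Long-term haematopoietic stem cells (LT) were compared with short-term haematopoietic stem cells (ST) of the same mouse, at 0 h of a culture experiment. All 0 h libraries of both cell types were taken, whichever treatment label they carried: 20 of the 127 deposited libraries, 11 of LT and 9 of ST, from 6 mice. Technical repeats were summed per mouse and cell type after 2 near-empty LT libraries of old mouse 2 (17 and 37 counts) were dropped, so that 18 libraries gave 12 sums, 6 pairs in all.

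The study sorted LT, ST and multipotent progenitors (MPP) from young and old mouse bone marrow. Their polyadenylated RNA was sequenced in bulk by SMART-seq2, which amplifies whole transcripts from little RNA, along a course of stimulation. The pairs came from young mice 1 to 4 and old mice 2 and 4. Young mice 1 and 2 and old mouse 2 carried the label of the stimulated course (100 ng/ml lipopolysaccharide and 1 ug/ml Pam3csk4) at 0 h, apart from LT repeats of old mouse 2 labelled untreated, and young mice 3 and 4 and old mouse 4 carried the untreated label. A time of 0 h was read as before exposure under either label; per the labels all cells were grown in HSPC medium at 37 C. Strain, sex, age in months, the number of cells per library and the surface markers of the sort are not given in the sources used here.

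Haematopoietic stem cells keep blood formation going by self-renewing and by giving rise to all lineages. LT are classically those that sustain a graft for life and divide rarely, while ST sustain it for a limited time and stand between LT and MPP, which have lost most self-renewal. In the mouse, rising CD34 and then FLT3 on the surface, and loss of SLAMF1, accompany that passage.

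LT and ST differed in 0 to 44 genes, depending on the tool. Among the genes that limma voom called, Cd34 and Flt3, surface proteins of later progenitors, were lower in LT in 6 and 5 of 6 mice. Ptrf, Tgm2, Apoe and Mmrn1 were higher in LT in 6 of 6 mice, and Vwf in 4 of 6. None of these passed the quasi-likelihood test of edgeR with mouse as a block, in which 0 of 10762 genes had an adjusted p under 0.05 in either direction (0% each). By that test 325 genes had an unadjusted p under 0.05 (3.02%), 182 higher in LT (1.69%) and 143 lower (1.33%), and the smallest adjusted p was 0.648, for Cd34. With the threshold at 0.05, chance alone would pass a larger share of genes than this 3.02%. With limma voom and sample quality weights 10 of the 10762 genes passed, 7 higher in LT (0.065%) and 3 lower (0.0279%). DESeq2 called 28 higher (0.233%) and 16 lower (0.133%) of 12037 genes with an adjusted p, and 8 genes passed both tools. These 8 are 80% of the limma voom calls and 18.18% of the DESeq2 calls. Over all 10762 genes the median log2 change, LT minus ST, was -0.03, and the middle 90% lay between -1.36 and 1.28. It was above 0 for 47.4% of them and below 0 for 52.6%. In 175 genes LT was higher in 6 of 6 mice (1.63%) and in 219 lower (2.03%). If signs were random, 6 mice would share 1 direction, up or down, in a share of 0.0313 of genes. The observed shares of the 2 directions lie near that rate. A count of 6 of 6 mice therefore does not by itself set a gene apart, and below it is a description. The libraries of the cell types did not overlap at all for 5 genes with LT higher (0.0465%) and 9 with LT lower (0.0836%). Levels below are CPM, counts scaled to the total of their library, and changes are log2 values from edgeR with their SE, unless another tool is named. An adjusted p of limma voom or DESeq2 beside an edgeR change comes from the own estimate of that tool, which can differ.

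**Figure D1:**
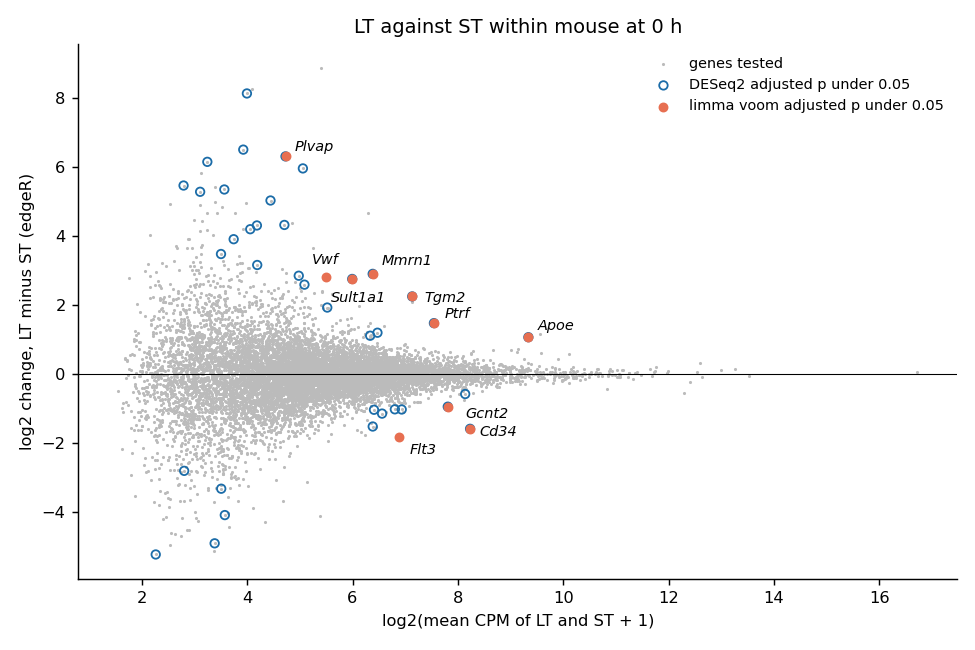
Log2 change of LT minus ST (edgeR, mouse as a block) against the mean level of 10762 genes, on log2 axes. The 10 genes past the limma voom threshold are filled and named, 3 of them below 0, and open circles mark genes past the DESeq2 threshold that edgeR also tested.

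The 12 summed libraries held 1899170 to 11764630 counts (median 4280832), so that the 3 counts which a value of 0 allows stand for 0.255 to 1.58 CPM, for counting error only. The log2 ratio of total counts, LT over ST, was -0.30 ± 0.45 (SD, n = 6 mice; exact sign-flip permutation test, 2-sided, p = 0.156, the smallest possible being 0.0313). LT held 11691 ± 1259 detected genes and ST 11732 ± 869 (exact permutation p = 0.938), a difference that was -494 ± 287 genes in the 4 young mice alone, lower in LT in 4 of 4 (exact permutation p = 0.125, the smallest possible). Neutrophil granule transcripts took 0.0240% of LT and 0.0158% of ST counts in young mouse 3 against 1.82% to 6.23% in the other 5 mice. The log2 ratio of that share, LT over ST, was 0.04 ± 0.29 (exact permutation p = 0.844). The repeats of a sum correlated at r = 0.383 to 0.873 in LT and 0.475 to 0.781 in ST on log2 CPM across genes, which are not independent replicates.

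The labels were checked against 9 marker genes of stem cells and 4 of later progenitors. In 5 of the 9 the mean was higher in LT than in ST (Slamf1, Esam, Mecom, Fgd5 and Hoxb5), and in 4 it was lower (Kit, Ly6a, Procr and Hlf). Of the 4 later markers, Cd34 and Flt3 had lower means in LT, while Cd48 stood at 60.1 ± 35.5 CPM in LT and 59.8 ± 33.4 CPM in ST (SD, n = 6). Satb1, a chromatin organiser of lymphoid progenitors, stood at 19.6 ± 32.5 CPM and 19.97 ± 13.5 CPM. Within mice Satb1 was lower in LT in 4 of 6. Its log2 change was -1.23 ± 0.76 by DESeq2 (adjusted p = 0.739) and -0.33 ± 0.64 by limma voom (adjusted p = 0.974). Kit and Ly6a, the receptor for stem cell factor and the antigen Sca-1, had a count in all 12 libraries and were both lower in LT in 6 of 6 mice. For Kit the log2 change was small, at -0.30 ± 0.13 (limma voom adjusted p = 0.931). In young mouse 3 Kit stood at 1439 CPM in LT and 1448 CPM in ST. A gene that the sort itself used would differ through the gate, and which of these genes it used is not known here.

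Cd34 encodes a sialomucin of progenitors and endothelium. Its LT libraries held 98.01, 139.8, 302, 77.9, 101 and 106 CPM in young mice 1 to 4 and old mice 2 and 4, and its ST libraries 304, 583, 969, 166, 582 and 165 CPM in the same order. LT was lower in 6 of 6 mice, though the highest LT library, of young mouse 3, stood above the 2 lowest ST libraries. The log2 change was -1.60 ± 0.23 (limma voom adjusted p = 7.32e-05, edgeR adjusted p = 0.648), a mean 3.36-fold higher in ST. Flt3, the receptor tyrosine kinase for FLT3 ligand, ranged from 13.01 to 137 CPM (median 32.5) in LT and from 18.6 to 476 CPM (median 152) in ST. Its levels overlapped: LT was lower in 5 of 6 mice, and young mouse 4 went the other way, with 38.4 CPM in LT and 18.6 in ST. Its log2 change was -1.85 ± 0.76. By limma voom the change was -2.90 ± 0.47 (adjusted p = 0.0156), while DESeq2 did not call Flt3 (adjusted p = 0.182). In a bulk library, fewer cells that carry a transcript and less of it per cell cannot be told apart.

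Slamf1, which encodes CD150, was listed at 0 in 5 of 6 ST libraries, the exception being young mouse 4 with 14.5 CPM. In LT it held 0, 28.1, 46.2, 3.16, 74.5 and 25.4 CPM in the mouse order above, so that LT was higher in 4 mice, lower in young mouse 4 and undetected on both sides in young mouse 1 (limma voom adjusted p = 0.234). Esam, an adhesion molecule of stem cells and endothelium, stood at 110.1 ± 78.1 CPM in LT and 45.9 ± 36.7 CPM in ST, higher in LT in 4 of 6 mice (log2 change 1.40 ± 0.56, limma voom adjusted p = 0.0964). Procr, the endothelial protein C receptor, was divided, at 59.9 ± 81.8 CPM and 65.8 ± 65.2 CPM, higher in LT in 2 mice. The list of 45 stem cell surface and sorting genes had 41 tested members, of which 9 were higher and 6 lower in LT at an unadjusted p under 0.05 (against 1.69% and 1.33% of all genes), with a median log2 change of 0.15. Among its lower members was Ltb, lymphotoxin beta, at 25.4 to 161 CPM (median 69.1) in LT and 72.6 to 283 CPM (median 158) in ST. Ltb was lower in LT in 6 of 6 mice, with overlapping ranges (log2 change -1.04 ± 0.20, DESeq2 adjusted p = 0.00154, limma voom adjusted p = 0.0597).

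**Figure D2:**
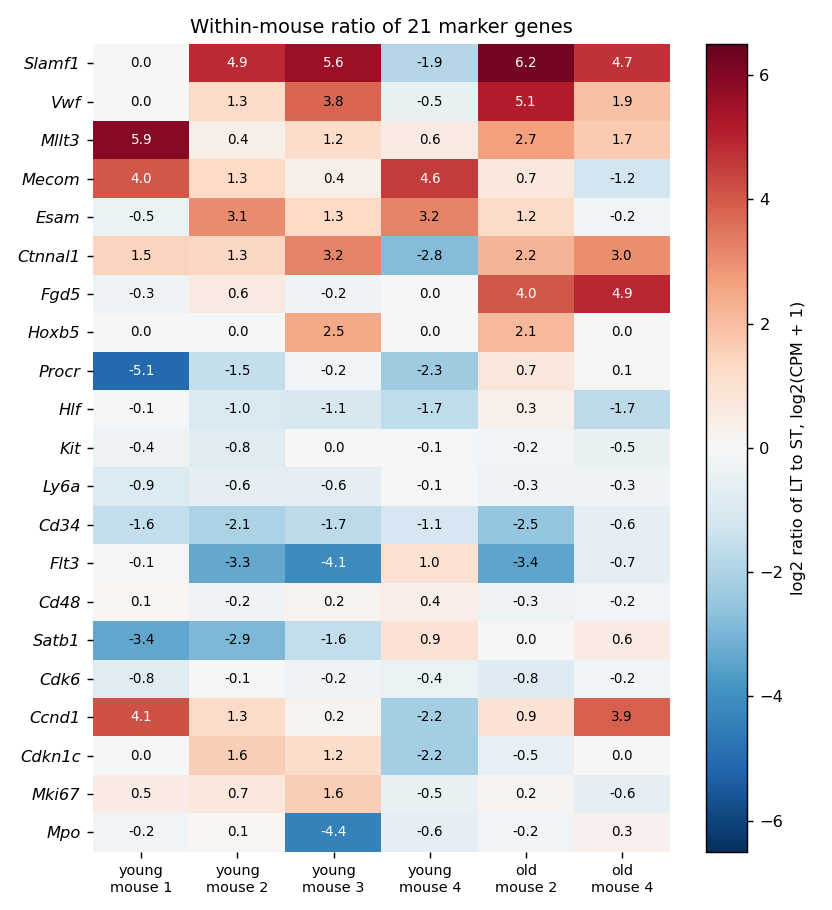
Log2 ratio of LT to ST in each mouse, from log2(CPM + 1), for 21 marker genes (rows) and 6 mice (columns), red where LT is higher and blue where ST is higher. Cd34, Kit, Ly6a and Cdk6 are below 0 in 6 of 6 mice and Mllt3 above 0 in 6 of 6, while the other rows hold both signs or a 0.

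Transcription factors of stem cells were divided between LT and ST. Of 37 tested factors 18 had a log2 change above 0 and 19 below, with a median of -0.02 against -0.03 over all genes. At an unadjusted p under 0.05, 4 were higher and 2 lower in LT (1.69% and 1.33% of all genes were). Mllt3, a chromatin reader that supports stem cell maintenance, ranged from 20.01 to 229 CPM (median 76.3) in LT and from 0.362 to 98.9 CPM (median 20.03) in ST, higher in LT in 6 of 6 mice (log2 change 1.96 ± 0.79, limma voom adjusted p = 0.0964). Mycn, a Myc family factor, stood at 185 ± 154 CPM in LT and 90.97 ± 108 CPM in ST, also higher in 6 of 6 mice (log2 change 2.08 ± 0.67, limma voom adjusted p = 0.465). Mecom, a zinc finger factor required by stem cells, was higher in 5 of 6 mice, at 74.6 ± 59.2 CPM against 42.4 ± 46.4 CPM. Runx1, a master factor of definitive blood, was higher in 5 of 6 mice (log2 change 0.77 ± 0.27). Hlf, a bZIP factor often used to mark stem cells, was lower in LT in 5 of 6 mice, at 7.37 to 221 CPM (median 58.01) in LT and 25.4 to 462 CPM (median 98.3) in ST. Its log2 change was -0.85 ± 0.31 (limma voom adjusted p = 0.374), and old mouse 2 was the mouse in which LT was higher. Zfp36l2, an mRNA decay factor, was lower in 5 of 6 mice (log2 change -0.61 ± 0.21).

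Most tested genes of platelets and their precursors had a log2 change above 0. Of 25 tested members of the megakaryocyte and platelet list 21 did so, against 47.4% of all genes, with a median of 0.54, and 3 were higher and 0 lower at an unadjusted p under 0.05 (1.69% and 1.33% of all genes). In young mouse 4 the list went the other way, with a median of -0.31 and a summed level of 1312 CPM in LT and 1561 CPM in ST. Vwf, the adhesive glycoprotein of platelets and endothelium, held 0, 29.8, 113, 0, 297 and 50.4 CPM in LT in the mouse order above, and at most 12.6 CPM in ST. Its LT libraries were thus high in old mouse 2 and young mouse 3 and at 0 in young mice 1 and 4 (log2 change 2.81 ± 0.88). By limma voom the change was 3.81 ± 0.58 (adjusted p = 0.00873), while DESeq2 did not call Vwf (adjusted p = 0.122). Mmrn1, multimerin of platelet granules, ranged from 23.7 to 248 CPM (median 107) in LT and from 0.121 to 109 CPM (median 22.99) in ST, higher in LT in 6 of 6 mice (limma voom adjusted p = 0.0182). Itga2b, the platelet integrin chain CD41, stood at 72.5 ± 31.04 CPM in LT and 36.3 ± 12.8 CPM in ST and was higher in 5 of 6 mice. Its partner Itgb3 (log2 change 1.92 ± 0.95) and the tetraspanin Cd9 (log2 change 0.41 ± 0.16) were also higher in 5 of 6 mice. None of these 3 passed a test.

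Tgm2 and Ptrf, like Cd34, kept their limma voom call whichever mouse was left out. Tgm2, a transglutaminase that crosslinks proteins, held 53.1, 215, 415, 65.8, 482 and 87.6 CPM in LT and 0.845, 49.7, 126, 29.5, 122 and 24.7 CPM in ST, in the mouse order above. LT was higher in 6 of 6 mice, by the most in young mouse 1, and the ranges overlapped (log2 change 2.25 ± 0.50, limma voom adjusted p = 7.32e-05). Ptrf, the caveolar coat protein cavin 1, held 145, 225, 528, 64.2, 633 and 58.8 CPM in LT and 28.1, 77.1, 239, 30.3, 161 and 40.5 CPM in ST, higher in LT in 6 of 6 mice (log2 change 1.47 ± 0.24, limma voom adjusted p = 4.95e-04). Both genes had their highest LT levels in young mouse 3 and old mouse 2. Sult1a1, a phenol sulfotransferase, ranged from 10.0 to 384 CPM (median 64.8) in LT and from 0 to 33.9 CPM (median 11.95) in ST (log2 change 2.75 ± 0.63, limma voom adjusted p = 0.0035). Apoe, a lipoprotein component, ranged from 503 to 1534 CPM (median 852) in LT and from 199 to 747 CPM (median 394) in ST, which overlapped through young mouse 1 (log2 change 1.06 ± 0.28, limma voom adjusted p = 0.00873). Both were higher in LT in 6 of 6 mice.

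Among the 8 genes of smallest p in each direction that had a mean of at least 10 CPM and 1 direction in all 6 mice, Stk38l, Ptgs1, Clca1 and St3gal5 were higher in LT. Ptgs1, the cyclooxygenase of basal prostaglandin synthesis, ranged from 65.2 to 143 CPM (median 131) in LT and from 17.6 to 109.6 CPM (median 62.7) in ST (log2 change 1.19 ± 0.28, DESeq2 adjusted p = 0.0232). Clca1, of the calcium-activated chloride channel regulator family, was at 0 in 3 ST libraries and reached 14.7 CPM in the others, against 3.16 to 132 CPM (median 54.8) in LT (DESeq2 adjusted p = 1.08e-05). St3gal5, the GM3 ganglioside synthase, and the kinase Stk38l stood at 105 and 29.2 CPM on average in LT and 54.5 and 5.34 in ST (DESeq2 adjusted p = 0.0327 and 6.20e-04). None of Ptgs1, Clca1, St3gal5 and Stk38l passed limma voom (adjusted p = 0.366, 0.0732, 0.504 and 0.303).

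Kdm5b and Gramd1a were among the 9 genes whose LT libraries all stood below all ST libraries. Kdm5b, a demethylase of histone H3 lysine 4, ranged from 23.7 to 90.2 CPM (median 55.1) in LT and from 92.5 to 169.6 CPM (median 122) in ST (log2 change -1.16 ± 0.24, DESeq2 adjusted p = 0.00357, limma voom adjusted p = 0.0635). Gramd1a, a sterol transporter of the endoplasmic reticulum, ranged from 51.4 to 93.2 CPM (median 74.97) in LT and from 109 to 180.2 CPM (median 151) in ST (log2 change -1.03 ± 0.21, DESeq2 adjusted p = 0.00231, limma voom adjusted p = 0.153). Gcnt2, which branches poly-N-acetyllactosamine chains of the I blood group, was lower in LT in 6 of 6 mice with overlapping ranges, 24.98 to 423 CPM (median 133) in LT and 42.8 to 822 CPM (median 221) in ST (log2 change -0.96 ± 0.19, limma voom adjusted p = 0.0205). Padi4, which converts arginine to citrulline in histones, and the inositol phosphatase Inpp5k had log2 changes of -0.59 ± 0.14 and -0.83 ± 0.20, lower in LT in 6 of 6 mice. Padi4 passed with DESeq2 (adjusted p = 0.0392) and Inpp5k did not (adjusted p = 0.0675). Neither of them passed limma voom (adjusted p = 0.19 and 0.419).

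**Figure D3:**
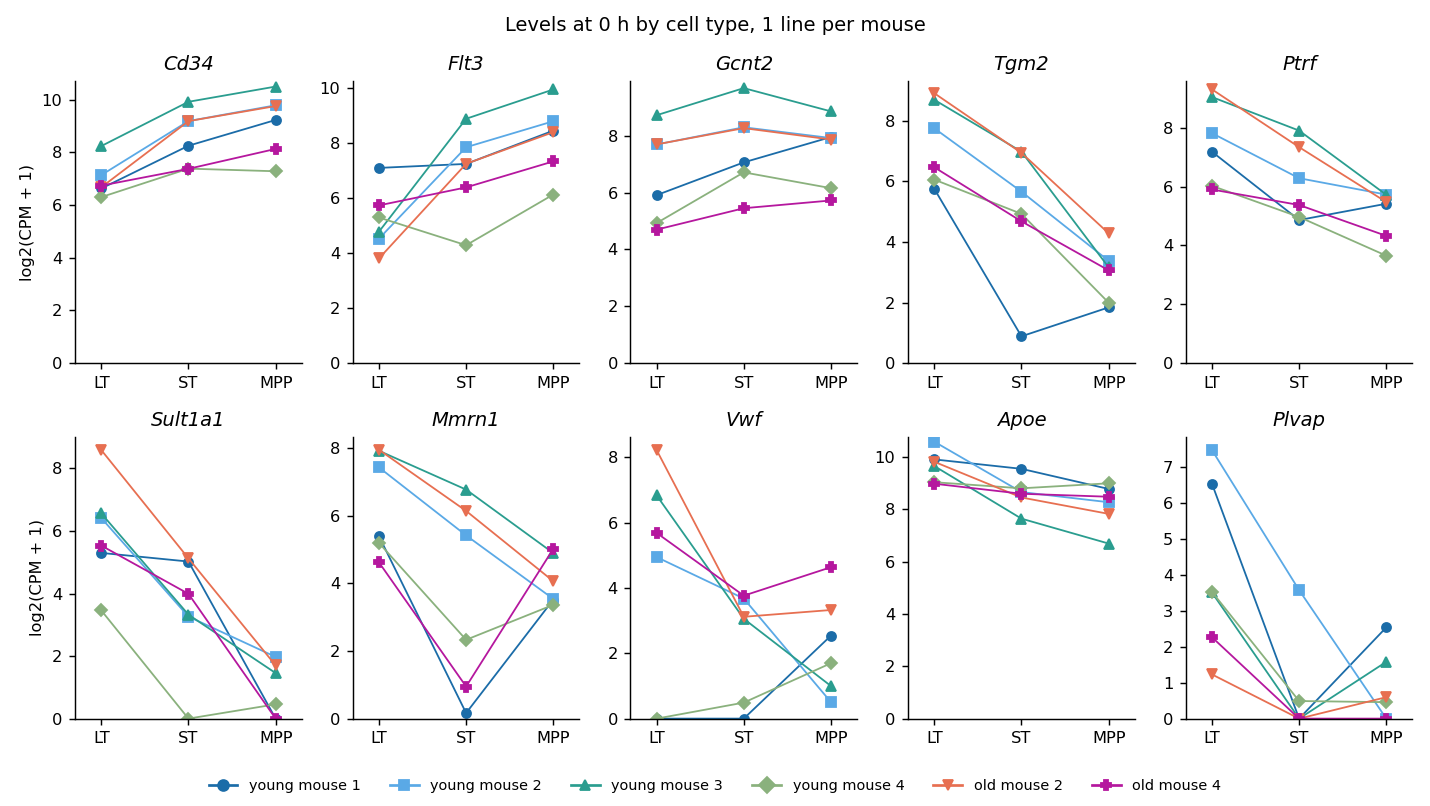
Levels, as log2(CPM + 1), of the 10 genes past the limma voom threshold in LT, ST and MPP at 0 h, with 1 line and marker per mouse. Tgm2, Ptrf and Sult1a1 fall from LT through ST to MPP in 5 of 6 mice and Cd34 rises in 5 of 6, while Gcnt2 is highest in ST in 4 of 6 mice.

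Most tested genes of lymphoid and multipotent progenitors had a log2 change below 0. Of 31 tested members 23 did so, against 52.6% of all genes, with a median of -0.32; 5 were lower and 1 higher at an unadjusted p under 0.05 (1.33% and 1.69% of all genes). Besides Cd34 and Flt3, the lower ones were Gpr171, H2afy and Lax1. Gpr171, a G protein-coupled receptor, ranged from 1.58 to 104 CPM (median 35.9) in LT and from 23.8 to 247 CPM (median 109) in ST, lower in LT in 6 of 6 mice (DESeq2 adjusted p = 0.0257, limma voom adjusted p = 0.0732). H2afy, the histone variant macroH2A1, stood at 209 ± 68.9 CPM in LT and 347 ± 46.6 CPM in ST, lower in 6 of 6 mice (log2 change -0.77 ± 0.20, limma voom adjusted p = 0.0597). Lax1, an adaptor of lymphocyte receptors, was lower in 5 of 6. The higher member was Bcl2, the survival factor, at 61.7 ± 15.6 CPM in LT and 33.5 ± 12.7 CPM in ST, higher in 6 of 6 mice (log2 change 0.95 ± 0.36, limma voom adjusted p = 0.397). In the Bcl2 family 9 of 10 tested members had a log2 change above 0, with a median of 0.44, against 47.4% of all genes. Within young mouse 4 and old mouse 4 the median of this family was below 0 (-0.18 and -0.11).

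Most MHC class II genes, which present antigen, had a log2 change below 0. Of 10 tested genes 8 did so, against 52.6% of all genes, with a median of -0.47, and the per-mouse median was below 0 in 6 of 6 mice. H2-DMa, a peptide exchange chaperone, ranged from 90.04 to 129 CPM (median 97.98) in LT and from 109 to 193 CPM (median 149.5) in ST. H2-Ab1, the beta chain of I-A, had a log2 change of -0.47 ± 0.18 and was, like H2-DMa, lower in 6 of 6 mice. Cd74, the invariant chain, had a log2 change of -0.43 ± 0.19 and was lower in 5 of 6 mice (limma voom adjusted p = 0.557, 0.642 and 0.61 for the 3 genes). B cells, monocytes and dendritic cells also carry class II. Markers of B cells had 8 of 12 tested genes below 0, a median of -0.27 and a summed level over 17 genes of 85.3 to 908 CPM in LT and 145 to 783 in ST. Markers of monocytes, macrophages and dendritic cells had 15 of 22 tested genes above 0 and a median of 0.21, and the part of either in the class II result was not tested. Interferon-stimulated genes had 28 of 40 tested members below 0, against the same 52.6%, and a median of -0.15. Samd9l, an interferon-induced inhibitor of translation, ranged from 35.5 to 97.4 CPM (median 53.7) in LT and from 84.5 to 137 CPM (median 113) in ST, lower in 6 of 6 mice (log2 change -1.05 ± 0.24, DESeq2 adjusted p = 0.0142, limma voom adjusted p = 0.219). Ifi203 and Trim30a, of the same list, were lower in 5 of 6 mice, and Ly6a, also interferon-inducible, in 6 of 6.

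Receptors and adaptors for the ligands used later in the course were near the background of all genes in their counts. Of 24 tested members of the Toll-like receptor list 15 had a log2 change below 0 (52.6% of all genes did), with a median of -0.29, and 0 had an unadjusted p under 0.05 in either direction. Ticam2, the adaptor that bridges TLR4 to TRIF, stood at 11.8 ± 5.04 CPM in LT and 27.2 ± 15.8 CPM in ST and was lower in 6 of 6 mice (log2 change -1.16 ± 0.54, limma voom adjusted p = 0.713). Rela, the p65 subunit of NF-kB, was lower in 6 of 6 mice, at 73.01 ± 21.2 CPM in LT and 125 ± 28.7 CPM in ST (log2 change -0.79 ± 0.22, limma voom adjusted p = 0.458). The NF-kB list as a whole had 12 of 23 tested members above 0. Socs2, a suppressor of cytokine signalling, was at 0 in 3 of 6 ST libraries and ranged from 14.4 to 88.3 CPM (median 30.8) in LT, higher in 6 of 6 mice (DESeq2 adjusted p = 0.00949). It did not pass limma voom.

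The cell cycle lists differed in sign between mice. In the S phase list 33 of 54 tested genes had a log2 change above 0, against 47.4% of all genes (median 0.20), and in the G2 and M phase list 37 of 50 (median 0.15). Within mice the median of the S phase list was below 0 in old mice 2 and 4 (-0.25 and -0.04), and that of the G2 and M phase list in young mice 1 and 4 and old mouse 4 (-0.02, -0.11 and -0.14). By edgeR 4 S phase genes were higher and 1 lower at an unadjusted p under 0.05, and 1 and 1 of the G2 and M phase list (1.69% and 1.33% of all genes). Mcm10, a replication initiation factor, was higher in LT in 6 of 6 mice, at 61.6 ± 36.2 CPM against 28.3 ± 35.8 CPM (DESeq2 adjusted p = 0.0315, limma voom adjusted p = 0.577). Orc1 of the same list was lower in 5 of 6 mice, at a median of 1.65 CPM in LT and 18.7 CPM in ST (log2 change -3.05 ± 1.10). Hmmr of the G2 and M phase list was lower in 5 of 6 mice (log2 change -0.68 ± 0.29). Mki67, the proliferation antigen, stood at 199.7 ± 77.7 CPM in LT and 200.3 ± 154 CPM in ST, with 4 mice higher and 2 lower. Cdk6, the kinase that sets the pace of exit from quiescence, was lower in LT in 6 of 6 mice, at 68.7 ± 18.4 CPM against 93.1 ± 25.7 CPM (log2 change -0.41 ± 0.22, limma voom adjusted p = 0.854). The CDK inhibitor Cdkn1c, known from quiescent stem cells, was at 0 in 3 LT libraries and in 2 ST libraries, and reached 9.78 CPM at most.

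**Figure D4:**
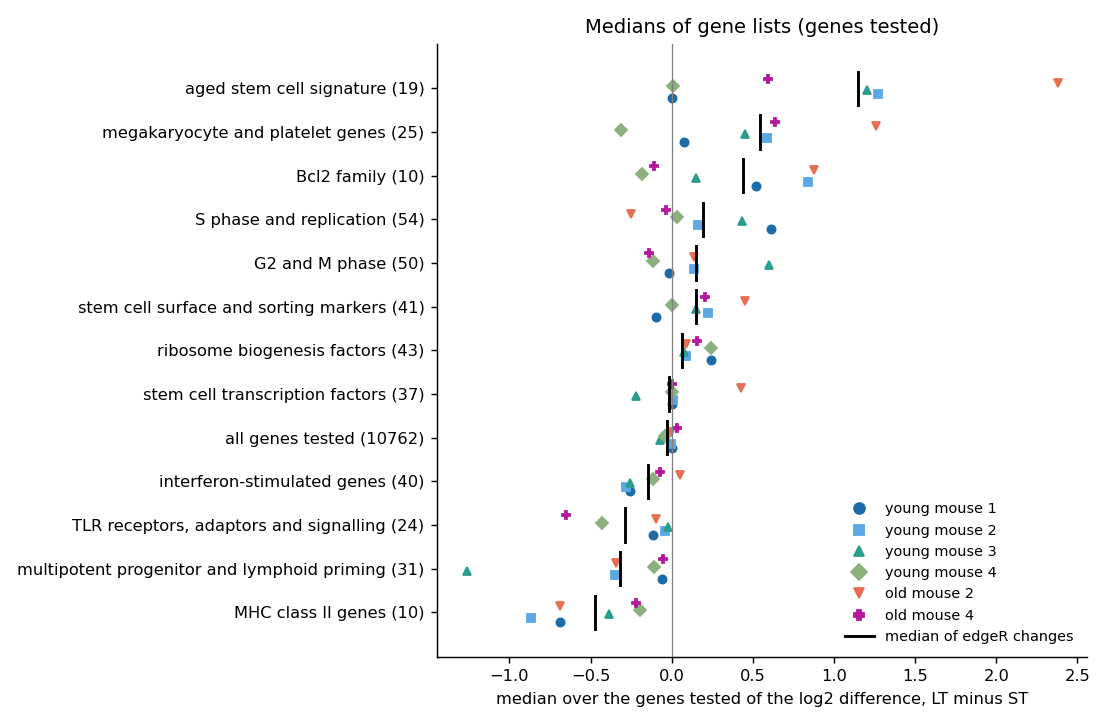
Median log2 difference of LT minus ST over the tested genes of 12 lists and of all genes, with 1 marker per mouse from log2(CPM + 1) and a bar for the median of the edgeR changes. The MHC class II markers lie below 0 in 6 of 6 mice, and the aged stem cell markers reach from 0 in young mouse 1 to 2.38 in old mouse 2.

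Transcripts of non-blood cells of the marrow were unequal between the cell types in part of the mice. The summed level of 22 stromal and endothelial genes, of which 10 were tested, was 1171 and 2318 CPM in LT of young mice 1 and 2. In LT of the other 4 mice it lay between 193 and 477, and in ST of all 6 between 139 and 329. Cxcl12, the niche chemokine, held 369 and 513 CPM in LT of young mice 1 and 2 and at most 32.3 in the other LT libraries. Stab2, a scavenger receptor of sinusoids, held 86.1 and 223 CPM in those 2 and at most 9.84 elsewhere in LT. Adipoq, Kitl and Bglap, of marrow adipocytes, niche cells and osteoblasts, were at 0 in all 6 ST libraries and had a count in 3, 2 and 1 LT libraries. Other members of the list went the other way. Tek had a count in 3 LT and 6 ST libraries, and Emcn in 4 and 5. Vcam1 was higher in LT in 5 of 6 mice (log2 change 1.03 ± 0.41). The exception was young mouse 1, with 113 CPM in LT and 215 CPM in ST. In LT of that mouse Tek, Cdh5, Flt1 and Kitl were at 0. Plvap, which forms the diaphragms of fenestrated endothelium, held 91.99, 177, 10.4, 10.5, 1.35 and 3.81 CPM in LT in the mouse order above, and was at 0 in 4 of 6 ST libraries with 10.9 CPM in young mouse 2. LT was thus higher in 6 of 6 mice, by far the most in young mice 1 and 2 (log2 change 6.31 ± 1.18). By limma voom the change of Plvap was 4.83 ± 0.84 (adjusted p = 0.0256). Stab1, another sinusoidal scavenger receptor, held 67.3 and 82.4 CPM in LT of these 2 mice and at most 11.2 in the others (DESeq2 adjusted p = 0.00108). Timp3, a matrix protease inhibitor, reached 87.8 CPM in LT of young mouse 2 (DESeq2 adjusted p = 0.00154). Of Plvap, Stab1 and Timp3, only Plvap passed limma voom. The part of such cells in these 3 results was not tested. Endothelium also transcribes Vwf, Mmrn1, Tgm2 and Ptrf. The part of endothelium in their results, and that of other cells in the result of Apoe, was not tested either.

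**Figure D5:**
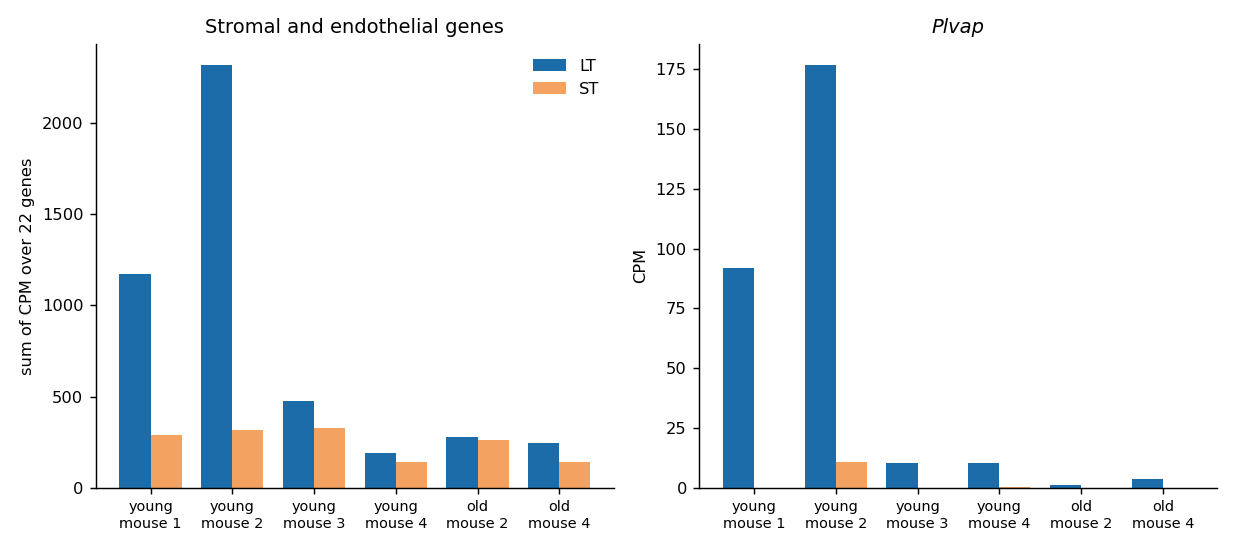
Summed CPM of 22 stromal and endothelial genes (left) and CPM of Plvap (right) in LT and ST of each mouse, with bars from 0. LT of young mice 1 and 2 stand above the other 10 libraries in both panels.

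Without young mice 1 and 2, an alternative chosen after seeing the data, edgeR called 0 of 10710 genes (363 at an unadjusted p under 0.05), limma voom 8 and DESeq2 19. Of these, 7 of the 8 were among the 10 limma voom calls, and 10 of the 19 among the 44 of DESeq2. Cd34 (adjusted p = 0.00107), Flt3 (0.0095), Tgm2 (5.09e-04), Ptrf (0.00257), Sult1a1 (0.00147), Vwf (0.00139) and Apoe (0.0459) passed limma voom there. Gcnt2 (0.111) and Mmrn1 (0.0664) did not, and Plvap fell under the filter on low counts. Plvap, Stab1 and Timp3 were not among the DESeq2 calls of the remaining 4 mice, while Clu was. Clu encodes clusterin, a secreted chaperone; it was named after its values were seen. It was at 0 in all 6 ST libraries and ranged from 0.423 to 74.5 CPM (median 12.8) in LT, where the lowest value is within what a 0 allows.

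The limma voom calls depended on single mice to different degrees. Cd34, Tgm2 and Ptrf passed whichever 1 of the 6 mice was left out. Sult1a1 did not pass without old mouse 2 (limma voom adjusted p = 0.244). Vwf did not pass without young mouse 3 (0.0715) or old mouse 2 (0.25), by limma voom adjusted p. Apoe and Gcnt2 missed the limma voom threshold without young mouse 2 (adjusted p = 0.107 and 0.0925) and without young mouse 3 (0.0715 and 0.71). Flt3 and Mmrn1 missed it without young mouse 2 (0.0925 and 0.107), young mouse 3 (0.428 and 0.103) or old mouse 2 (0.0619 and 0.145). Plvap missed it without young mouse 3 (0.146), young mouse 4 (0.0647) or old mouse 2 (0.0826) and was filtered out without young mouse 2.

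MPP libraries of the same mice, which did not enter the comparison, place the 16 genes of smallest p along the 3 cell types. Of the 8 higher in LT, 5 had means that fell from LT through ST to MPP: Tgm2 (219.9, 58.8 and 8.14 CPM), Ptrf (276, 96.0 and 36.6 CPM), Sult1a1, Ptgs1 and Plvap. Within mice that order held in 5 of 6 for Tgm2, Ptrf and Sult1a1, in 3 for Ptgs1 and in 2 for Plvap. Of the 8 lower in LT, Cd34 had means that rose in that order (137, 462 and 706 CPM), and the other 7 had their highest mean in ST. Ltb, for one, stood at 79.4, 163 and 55.4 CPM, and ST was the highest of the 3 in 6 of 6 mice. Samd9l, Padi4 and Inpp5k were likewise highest in ST in 6 of 6 mice. H2afy rose from LT through ST to MPP in 6 of 6 mice, with means of 209, 347 and 595 CPM. The genes had been picked on LT against ST, so these orders are a description.

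Whether the difference between LT and ST itself depended on age was tested on 4 young and 2 old pairs. By edgeR 0 of 10762 genes had an adjusted p under 0.05 (0%) for this interaction and 230 had an unadjusted p under 0.05 (2.14%), while DESeq2 called 25. Fgd5, a guanine exchange factor used as a stem cell reporter gene, held 69.1 and 28.8 CPM in LT and 3.30 and 0 in ST of old mice 2 and 4. In young mice 1 to 4 it held 20.5, 16.9, 55.2 and 0 CPM in LT and 26.1, 10.8, 64.6 and 0 in ST, so that LT was higher in 1 young mouse, lower in 2 and at 0 on both sides in young mouse 4. The change was 5.35 larger in old than in young mice on the log2 scale (DESeq2 adjusted p = 0.0428, edgeR adjusted p = 1). Genes known to be raised in aged stem cells, Sult1a1, Vwf and Slamf1 among them, had a median log2 change, LT minus ST, of 1.15 over 19 tested members, 15 of them above 0 (47.4% of all genes) and 5 higher at an unadjusted p under 0.05 (1.69% of all genes). The median within mice was 2.38 and 0.59 in old mice 2 and 4 and 0, 1.27, 1.20 and 0.01 in young mice 1 to 4, so old and young overlapped. Amotl2 of this list, an angiomotin, was higher in LT without overlap, at 12.03 to 27.1 CPM in LT and 0 to 8.22 CPM in ST (DESeq2 adjusted p = 0.00154, limma voom adjusted p = 0.153).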

How the data were processed

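Polyadenylated RNA of LT and ST at 0 h was sequenced with SMART-seq2. The authors deposited expected counts per gene symbol, made with RSEM (version not stated) on mm9, per the submitters' processing notes; whether strand was used is not given. The table holds 23366 genes in 127 columns, and 98 columns of other times were not used. Of the values used, 89.1% are whole. Column names give age, cell type and time but no mouse number. Columns were tied to mice by these, by the length of each course and the number of columns, and by a date in the names of 4 pairs; young mouse 4 and old mouse 4 share 1 undated label and were told apart by age. LT and ST of a pair share that date or label, and date and mouse cannot be told apart. Nothing states that the repeats were separate cell samples, so they were summed, libraries under 1000 counts were dropped and sums were rounded. With mouse as a block, the p-values rest on how far the LT to ST difference varied among the 6 mice, not on differences in level between mice.

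The summed counts entered edgeR 4.0.16 in R 4.3.3 (TMM, filterByExpr, quasi-likelihood F test, mouse as a block, 2-sided) and adjusted by Benjamini-Hochberg over all genes at 0.05; the SE is the change divided by the root of F. The block follows the shared mouse label: deviations of LT and ST of a mouse correlated at r = 0.172, 0.110, 0.685 and 0.276 in young mice 1 to 4 and 0.158 and 0.141 in old mice 2 and 4. LT of young mice 1 to 4 correlated best with ST of their own mouse, while LT of old mice 2 and 4 correlated best with ST of another mouse. Alternatives were limma 3.58.1 voom with sample quality weights, DESeq2 1.42.0 (also its size factors in edgeR), no block, MPP added, no filter or a mean of 5 CPM, 1 repeat in place of the sum, young mice only and leaving out each mouse. Leaving out young mice 1 and 2, and limma voom without each mouse, were chosen after seeing the data. Within-mouse ratios add a pseudocount of 1 CPM. Detected genes have at least 1 count. The steps were tested on simulated data. Figures used Python 3.11.15 and matplotlib 3.10.9.

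The comparison and the 41 gene lists, which hold 1174 genes, were chosen with earlier results of these data known. Named genes were those past the threshold, or else the 8 of smallest p per direction among genes averaging 10 CPM or more and moving 1 way in 6 mice, up to 4 per list of smallest p, and a set of 22 markers, of which 1 is not reported here. Genes past limma voom or DESeq2 only, and genes named for a range without overlap, were named after their values were seen, as were Adipoq, Kitl and Bglap. Genes with near-identical copies share reads. Counting error only is covered by floors, since reads carry no molecular identifiers. No positions or sequences were analysed here.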

Additional observations from a re-analysis of the deposited data

Results flagged for a closer look

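In 8 of 86 groups of 6 values examined, 1 mouse stood apart from the other 5 by more than Dixon's 95% limit (0.625 of the range); chance gives about 5%. The share of neutrophil granule counts was lowest in young mouse 3, at 0.0240% of LT and 0.0158% of ST, against 1.83% to 6.23% in LT and 1.82% to 6.09% in ST of the other mice. Mpo, the peroxidase of primary granules, had a log2 ratio of LT over ST of -4.41 in young mouse 3, against -0.65 to 0.29 in the others, at 3.01 CPM in LT and 84.0 CPM in ST. Tgm2 had a log2 ratio of 4.88 in young mouse 1 against 1.13 to 2.09 in the others, where its ST library was nearly empty of the transcript (0.845 CPM). In the same mouse the phosphatase Cdc25b had a log2 ratio of 2.86, against 0.22 to 1.07 in the others, and the chaperone Hspa5 1.36, against 0.08 to 0.34. Ctnnal1, an alpha-catulin that marks stem cells, had a log2 ratio of -2.82 in young mouse 4 and between 1.35 and 3.23 in the others. Canx, a lectin chaperone, had a log2 ratio of 0.77 in old mouse 2 and -0.01 to 0.27 in the others.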

How the results depend on the processing

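Of 80 named genes 75 kept the direction of their change in every alternative run by edgeR, DESeq2 or limma voom, and 12 of 1260 values turned, none of them past a threshold. Many of these genes were named for 1 direction in 6 mice, a small p or a call in these same data. That choice favours a kept direction, and the share over all genes was not computed, so the count is a description. The count of genes past the threshold stayed at 0 with no replicate block (unpaired, 151 at an unadjusted p under 0.05), MPP added (smallest edgeR adjusted p 0.0782), DESeq2 size factors, both other filters, 1 repeat, young mice only and without any 1 mouse (0 to 0), but was 44 with DESeq2 and 10 with limma voom. The limma voom count ranged from 4 (without young mouse 3) to 15 (without young mouse 1) when 1 mouse was left out, and was 6 without young mouse 2; DESeq2 called 19 without young mice 1 and 2. The causes were not tested. For the interaction with age the count was 25 with DESeq2, 0 with no replicate block and 0 to 1 without 1 mouse, the 1 being Gm20594 without old mouse 4 (log2 change -6.39, edgeR adjusted p = 0.0157), which was named after its values were seen. The difference in detected genes, LT minus ST, lay between -268.6 and 126.6 without 1 mouse, was -325.5 with 1 repeat and -494 ± 287 in young mice only (LT lower in 4 of 4, exact permutation p = 0.125, the smallest possible). The log2 ratio of the granule share lay between -0.0700 and 0.0917 without 1 mouse and was 0.113 in young mice only; that of total counts lay between -0.38 and -0.14. The log2 change of Cd48 was -0.0847 with 1 repeat, -0.00123 with MPP added, -0.0412 with limma voom and -0.0756 to 0.0873 without 1 mouse. With no replicate block that of Satb1 was 0.0132 and that of Mki67 -0.0123. With the block and a filter at a mean of 5 CPM they were -1.24 and 0.324. Without young mice 1 and 2 that of Satb1 was -9.04e-04. Cdkn1c had -0.0130 with no filter, -0.733 without young mice 1 and 2 and -0.668 to 0.909 without 1 mouse, and Mpo 0.0167 with limma voom. A value of 0 allows 0.255 to 1.58 CPM in these libraries, so changes among genes near that level were not measurable here.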
